A study of Mus musculus with 10 samples.

Results

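Collagens are the proteins that give connective tissue its strength, and 42 genes of the array that carry a collagen symbol were compared between D257A and WT gastrocnemius muscle. A collagen gene was any gene whose symbol is made of Col, a number, the letter a and a number, and it was kept where a probe set named it alone. The array holds 82 such probe sets among 45037 that are not controls. The genes were placed in 4 groups by the structure their protein forms, with 11 fibrillar, 8 basement membrane, 9 fibril-associated and 14 other collagens. All 10 mice were males of 13 months, and each gave 1 array of total RNA from whole gastrocnemius, a calf muscle of mostly fast fibres. The 5 D257A mice were homozygous for the D257A form of Polg (PolgD257A/D257A), the mitochondrial DNA polymerase, whose proofreading is impaired by the change. The change is in the germ line and is therefore carried by every cell type of the muscle. The 5 WT mice were Polg+/+. The study compared these genotypes to find which genes change in muscle when mitochondrial DNA mutations accumulate.

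Collagen chains are made in the endoplasmic reticulum, mostly by fibroblasts in muscle and by tendon cells at its ends. There they are hydroxylated, wound into a helix of several chains and secreted. Fibrillar collagens then pack into the cables of tendon and of the sheaths around fibre bundles. Basement membrane collagens form a sheet around each muscle fibre and capillary, fibril-associated collagens sit on the surface of fibrils, and type VI collagen makes beaded filaments between the sheet and the fibrils.

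Signals are on a linear scale after each array was scaled to a common trimmed mean of 500, and log2 fold changes, always D257A minus WT, are given with limma's standard error (SE). The brighter part of the 45037 probe sets, 22518 above the median, was tested, and p-values were adjusted over all of these by Benjamini-Hochberg. A probe set was called lower or higher at an adjusted p under 0.05, and a gene was read from its brightest probe set. Where the methods' t-test (equal variance) is said to call genes, its p-values were adjusted in the same way. Exact permutation tests are 2-sided, and the smallest p that 5 mice against 5 can give is 0.00794. Values by mouse are in the order 2-17M, 2-21M, 2-25M, 2-27M and 2-30M for D257A mice, and 1-12M, 1-13M, 2-3M, 2-32M and 3-18M for WT mice.

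WT mouse 1-13M was unlike the rest of its group. Its array had the highest trimmed mean as deposited, 129 against 94.5 to 116 in the other WT mice, and the lowest weight of the 10 arrays when limma estimated weights over all tested probe sets (0.283, against 0.555 to 1.73). Its mean log2 ratio of 3′ to 5′ control probe sets, a sign of RNA integrity, was -0.30, within the range of the other WT mice (-0.43 to -0.17) and of the D257A mice (-0.36 to -0.27). Where this mouse was the WT mouse nearest the D257A mice, as in many collagen genes below, leaving it out had to widen the difference. Fits without it are therefore given as a description and add no support. As muscle fibre genes, Acta1, Ckm, Myh4, Myh1, Tnnt3, Tnni2, Pvalb and Actn3 were read. All 8 were tested by limma and 0 were called (0 at an unadjusted p under 0.05, and 0 by the methods' t-test). Their summed signal was 431927 to 469015 in D257A mice and 381734 to 498583 in WT mice. Cochlea is given as the RNA's origin in 1 line of the sample descriptions, so 9 cochlea genes were also read. Of these, 3 were bright enough to be tested, and their list summed to 404 to 619 in D257A mice and 527 to 606 in WT mice.

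Chains of the large fibrils were lower in D257A muscle. Of the 44 collagen probe sets tested, 8 were lower and 1 was higher, where 3.74% of all tested probe sets were lower and 3.64% higher. Counted by gene, 5 of 28 tested collagen genes fell, 1 rose and 22 did not pass, where 3.52% of all tested genes were lower and 3.71% higher. The genes that fell were Col1a1, Col1a2, Col3a1 and Col5a1, chains of fibrillar collagens, and Col6a1, a chain of type VI collagen. The gene that rose was Col9a1, a chain of the fibril-associated type IX collagen. Col1a1 was above the brightness threshold, the median used for testing, in WT mice only. Of the 25 tested collagen genes above it in both genotypes, 4 fell and 1 rose. All 5 D257A mice have a number that begins with 2, where 2 WT mice begin with 1, 2 with 2 and 1 with 3, and what this digit stands for is not given in the labels. With the digit as a block, Col1a2 (limma adjusted p = 0.0194) and Col9a1 (0.0437) kept their calls. Col1a1 (0.0985), Col3a1 (0.0931), Col5a1 (0.192) and Col6a1 (0.0704) lost theirs. Among the 7 mice whose number begins with 2, limma adjusted p-values were 5.11e-04 for Col1a2, 0.0461 for Col1a1, 0.00337 for Col3a1, 0.0108 for Col6a1, 0.00819 for Col9a1 and 0.0556 for Col5a1. Both fits take the difference from the 5 D257A mice and the same 2 WT mice, without WT mouse 1-13M. They are not separate checks, and the log2 fold change of Col1a1 was -3.28 in both. In whole muscle, fewer cells of a type and less RNA per cell cannot be told apart. For 3 probe sets, both of Col1a2 and 1 of Col5a1, every D257A mouse was below every WT mouse, and 0 were above, where 3.77% of all tested probe sets did the first and 3.94% the second. Without WT mouse 1-13M, 13 collagen genes were lower and 2 higher, where the same fit called 8.33% of all tested genes lower and 7.76% higher. By probe set these counts were 19 and 2, where 7.90% and 7.32% of all tested probe sets were called.

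**Figure D1:**
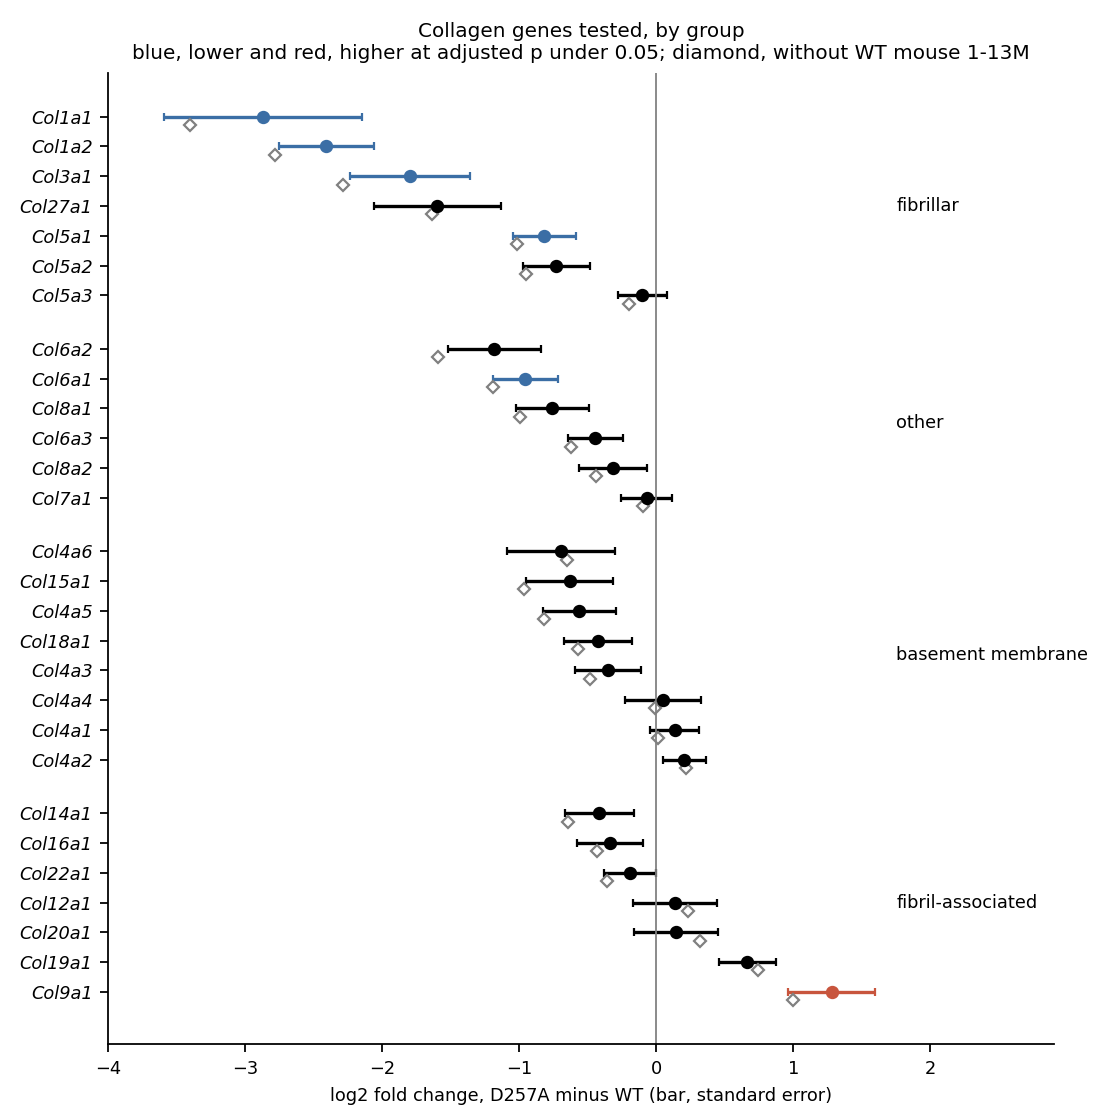
Log2 fold change, D257A minus WT, of the 28 tested collagen genes, each by its brightest probe set, with the limma SE as a bar. Blue points fell and red points rose at an adjusted p under 0.05, black points did not pass, and the grey diamond is the value without WT mouse 1-13M. Col1a1 lies lowest at -2.87 and Col9a1 highest at 1.28, and the 7 fibrillar genes are all left of 0.

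Promoters are shown for the genes that fell and have an entry in the RefSeq promoter table, so that the letters before their starts can be read side by side. Entries were found for 33 of the 42 collagen genes, in 36 windows, on build GRCm38.p6. Each sequence holds the 250 bases before the start of the gene on its own strand. Capitals mark the box named for TATA, searched as TATAAA with its opposite-strand reading TTTATA. They also mark the box named for CCAAT, whose opposite-strand reading is ATTGG. The last motif searched was the GC box, written GGGCGG with opposite-strand reading CCGCCC. Where the CCAAT box lies on the opposite strand, its last bases can be shared with a GC box. Col1a2 lies at chr6:4505368-4505617 on the plus strand, Col3a1 at chr1:45311288-45311537 on the plus strand, Col5a1 at chr2:27886175-27886424 on the plus strand and Col6a1 at chr10:76726045-76726294 on the minus strand.
Col1a2: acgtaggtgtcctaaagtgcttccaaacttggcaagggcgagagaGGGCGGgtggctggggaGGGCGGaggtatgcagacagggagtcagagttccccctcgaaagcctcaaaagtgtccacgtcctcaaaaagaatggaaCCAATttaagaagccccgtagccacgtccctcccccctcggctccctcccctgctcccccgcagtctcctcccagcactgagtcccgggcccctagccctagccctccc
Col3a1: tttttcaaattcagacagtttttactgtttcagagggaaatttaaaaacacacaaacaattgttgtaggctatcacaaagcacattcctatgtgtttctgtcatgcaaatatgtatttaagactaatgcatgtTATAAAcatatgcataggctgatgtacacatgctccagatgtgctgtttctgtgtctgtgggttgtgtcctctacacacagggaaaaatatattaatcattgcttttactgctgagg
Col5a1: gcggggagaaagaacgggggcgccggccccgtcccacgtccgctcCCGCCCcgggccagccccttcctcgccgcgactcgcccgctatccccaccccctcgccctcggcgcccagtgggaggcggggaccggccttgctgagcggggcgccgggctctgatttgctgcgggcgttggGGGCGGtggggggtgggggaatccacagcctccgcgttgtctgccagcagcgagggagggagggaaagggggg
Col6a1: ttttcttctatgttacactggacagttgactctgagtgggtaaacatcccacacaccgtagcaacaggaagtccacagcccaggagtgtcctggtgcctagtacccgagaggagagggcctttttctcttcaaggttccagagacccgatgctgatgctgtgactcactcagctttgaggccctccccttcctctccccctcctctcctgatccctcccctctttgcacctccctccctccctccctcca
The sequences differ in these letters. Col1a2 has GC boxes that begin 205 and 188 bases before the start and a CCAAT box that begins 109 bases before it. Col3a1, in an AT-rich stretch, has a TATA box that begins 117 bases before the start, and Col5a1 has GC boxes at 205 and 73 bases. Col6a1 holds none of these letters in the window. Over all 36 collagen windows, 21 (58.3%) held a GC box, 13 (36.1%) a CCAAT box and 5 (13.9%) a TATA box. Of the 32851 windows of the whole table, 32.7% held a GC box, 33.8% a CCAAT box and 12.4% a TATA box.

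Type I collagen, the main fibril of tendon and of muscle sheaths, is wound from the chains of Col1a1 and Col1a2. The signal of Col1a2 (1450857_a_at) was 487, 329.9, 513, 510.0 and 299.8 in D257A mice and 3548, 778, 1941, 2805 and 3516 in WT mice. The genotypes did not overlap, and WT mouse 1-13M was the lowest WT mouse. Its mean was 428 ± 104 in D257A and 2518 ± 1172 in WT mice (SD, 5 mice each), 5.30-fold lower in D257A mice (log2 fold change -2.41, SE 0.35, limma adjusted p = 0.00163; exact permutation p = 0.00794). Without WT mouse 1-13M the log2 fold change was -2.78. The other probe set of Col1a2 (1423110_at) gave 161, 181, 260.2, 239 and 167 in D257A mice and 1224, 269, 972, 1219 and 2437 in WT mice. Again the genotypes did not overlap, although WT mouse 1-13M lay just above the highest D257A mouse. The log2 fold change was -2.32 (SE 0.42, limma adjusted p = 0.00543).

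The partner chain Col1a1 (1423669_at) had signals of 8.22, 88.7, 161, 77.3 and 122 in D257A mice and 761, 107, 559.7, 702 and 719.6 in WT mice. WT mouse 1-13M lay among the D257A mice, and the other 4 WT mice were above all of them. The mean was 91.4 ± 56.7 in D257A and 569.9 ± 269 in WT mice (SD, 5 mice each), with a log2 fold change of -2.87 (SE 0.72, limma adjusted p = 0.0282; exact permutation p = 0.0238). D257A mouse 2-17M, at 8.22, was far below the others, and without it the log2 fold change was -2.13 (limma adjusted p = 0.0327). The call was lost without WT mouse 1-12M (limma adjusted p = 0.0770), 2-3M (0.0669), 2-32M (0.0707) or 3-18M (0.0569). Without WT mouse 1-13M the log2 fold change was -3.40 (limma adjusted p = 0.00255). Its other probe set (1455494_at) gave 49.1, 65.7, 85.2, 101 and 93.2 in D257A mice and 424, 97.6, 168, 279 and 449 in WT mice, with only WT mouse 1-13M inside the D257A range. There the log2 fold change was -1.68 (SE 0.38, limma adjusted p = 0.0181), and the call was lost with D257A mouse 2-17M left out (0.0522) and with WT mouse 1-12M left out (0.0551). Both Col1a1 probe sets had a mean above the brightness threshold in WT mice only, which makes a difference more likely among those that were tested.

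**Figure D2:**
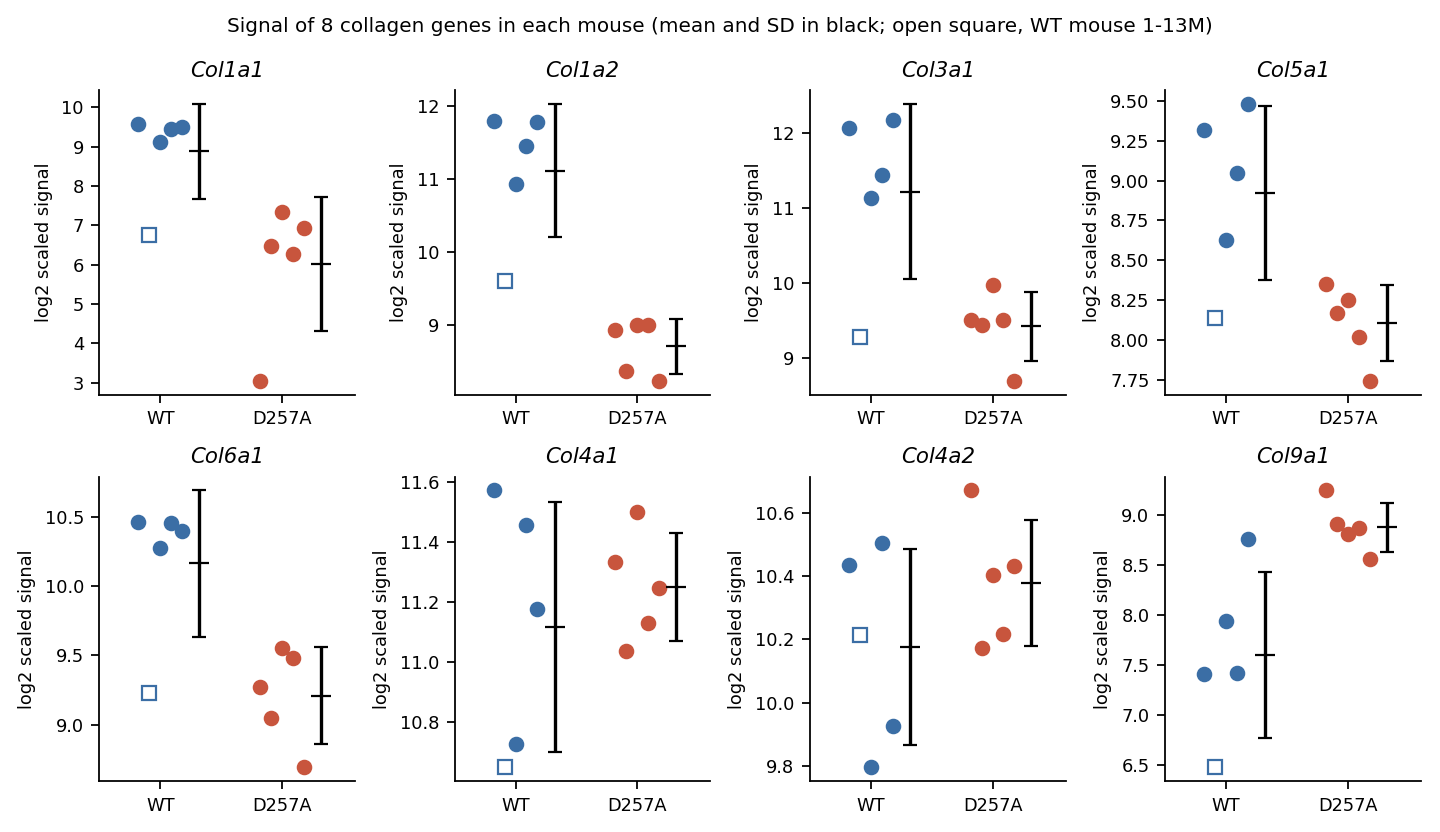
Log2 scaled signal of 8 collagen genes by mouse in 5 WT and 5 D257A animals, with mean and SD in black; the open square is WT mouse 1-13M and each panel has its own vertical axis. In Col1a1, Col1a2, Col3a1, Col5a1 and Col6a1 the other 4 WT mice lie above every D257A mouse, in Col4a1 and Col4a2 the genotypes overlap, and in Col9a1 D257A mice are higher with 1 WT mouse among them.

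Type III collagen, encoded by Col3a1, forms thinner fibrils beside type I in vessels and muscle sheaths. Its signal (1427883_a_at) was 728, 693, 1004, 727 and 413 in D257A mice and 4281, 618, 2238, 2792 and 4645 in WT mice. WT mouse 1-13M was below 4 of the 5 D257A mice, and the other WT mice were above all D257A mice. The mean was 713 ± 209.6 in D257A and 2915 ± 1629 in WT mice (SD, 5 mice each), with a log2 fold change of -1.80 (SE 0.44, limma adjusted p = 0.0245; exact permutation p = 0.0397). It was -2.28 without WT mouse 1-13M (limma adjusted p = 5.26e-05). The call was lost without any one of the D257A mice 2-17M (0.0562) and 2-30M (0.0607), and without any one of the WT mice 1-12M (0.0695), 2-3M (0.0529), 2-32M (0.0598) or 3-18M (0.0517). The dimmer probe set of Col3a1 (1427884_at) did not pass, with a log2 fold change of -1.41 (limma adjusted p = 0.0779), and it was above the brightness threshold in WT mice only.

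Type V collagen starts new fibrils and sets their width, and Col5a1 and Col5a2 encode its main chains. Col5a1 (1416740_at) had signals of 327, 288, 304, 259 and 214 in D257A mice and 639, 281, 396, 528 and 715 in WT mice. WT mouse 1-13M was again inside the D257A range, and the rest of the WT mice were above it. The log2 fold change was -0.82 (SE 0.23, limma adjusted p = 0.0468; exact permutation p = 0.0317), and -1.01 without WT mouse 1-13M (limma adjusted p = 0.00248). This call was lost when any 1 of the other 9 mice was left out (limma adjusted p from 0.0639 to 0.123). At the other probe set of Col5a1 (1434479_at), signals were 343, 223, 231, 279 and 159.6 in D257A mice and 427, 362, 472, 444 and 351 in WT mice. Here the genotypes did not overlap and WT mouse 1-13M lay with the other WT mice. On the log2 scale the change was -0.77 (SE 0.19, limma adjusted p = 0.0274; exact permutation p = 0.00794), and the call was lost without any one of the D257A mice 2-21M (0.0567), 2-25M (0.0645) and 2-30M (0.0545), and without any one of the WT mice 1-12M (0.0673), 2-3M (0.0733) or 2-32M (0.0686).

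Its partner Col5a2 (1422437_at) did not pass the test. Signals were 454, 349.6, 487, 347 and 313 in D257A mice and 793, 347, 559, 651 and 1048 in WT mice. Only WT mouse 1-13M lay inside the D257A range. The log2 fold change of -0.73 (SE 0.25) had a limma adjusted p of 0.0900, and of 0.00428 without WT mouse 1-13M, where it was -0.95. At the dimmer tested probe set of Col5a2 (1450625_at) it was -0.44 (limma adjusted p = 0.427, and 0.163 without that mouse). There WT mouse 2-32M also lay inside the D257A range. The ratio of Col5a1 to Col5a2 differed between the genotypes by -0.09 on the log2 scale (exact permutation p = 0.333). That of Col1a1 to Col1a2 differed by -0.46 (exact permutation p = 0.841), with an SD of 1.86 in D257A and 0.40 in WT mice. D257A mouse 2-17M had signals of 8.22 for Col1a1 and 487 for Col1a2. Without that mouse the log2 fold changes were -2.13 for Col1a1 and -2.46 for Col1a2. The ratio of Col1a1 to Col1a2 would then have the opposite sign, so its direction depended on D257A mouse 2-17M.

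Col27a1, a fibrillar collagen of cartilage, had signals of 28.8, 35, 150.0, 47.9 and 154 in D257A mice and 333, 176, 118, 198 and 206 in WT mice. D257A mice 2-25M and 2-30M overlapped with WT mouse 2-3M. Its log2 fold change was -1.60 (SE 0.47, limma adjusted p = 0.0528, and 0.0382 without WT mouse 1-13M), and the probe set was above the brightness threshold in WT mice only. Col5a3, a further chain of type V, had a log2 fold change of -0.10 (limma adjusted p = 0.777). Over the 7 tested fibrillar genes the median log2 fold change was -1.60, beside -0.01 over the 11216 genes tested, and 4 fell, 0 rose and 3 did not pass. Col1a1 and Col27a1 entered the test through the WT mice alone, and the median of the 5 other genes was -0.82. Without WT mouse 1-13M, 6 of the 7 fell. The other 4 fibrillar genes, Col2a1, Col11a1, Col11a2 and Col24a1, were too dim to be tested. Of these Col11a1, a chain of the type XI collagen that resembles type V, was named after its values were seen. At its brightest probe set (1418599_at) signals were 51.4, 36.7, 12.3, 32.6 and 30.4 in D257A mice and 109.5, 43.3, 87.3, 101 and 105 in WT mice, and WT mouse 1-13M was below the highest D257A mouse. At the dimmer one (1449154_at) they were 4.65, 4.28, 20.7, 22.5 and 25.8 in D257A mice and 45.7, 38.4, 41.0, 117 and 189 in WT mice, with no overlap of the genotypes.

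**Figure D3:**
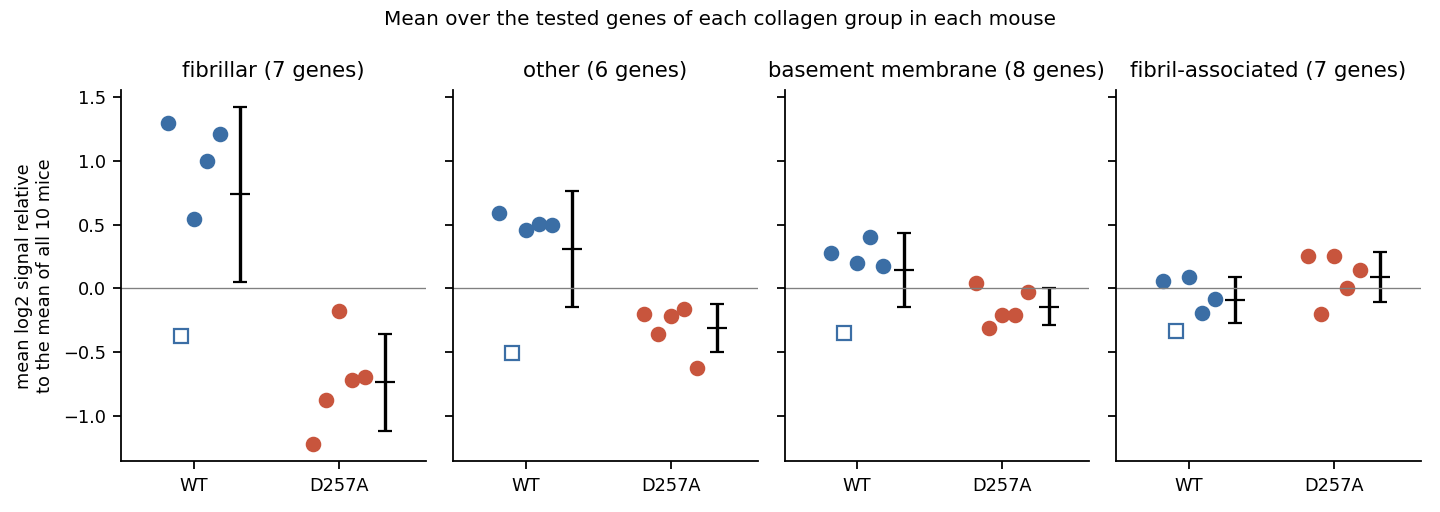
Mean log2 signal over the tested genes of each collagen group in each mouse, centred on the 10 mice together; black marks give the mean and SD for the 5 WT and the 5 D257A mice, and the open square is WT mouse 1-13M. On the fibrillar panel WT mouse 1-13M lies at -0.37, inside the D257A range of -1.22 to -0.18, and the other WT mice lie at 0.55 or above. This panel includes Col1a1 and Col27a1, which entered the test through the WT mice alone, and that selection adds to the separation. On the basement membrane panel WT mouse 1-13M is lowest at -0.35. There the D257A mice lie at -0.31 to 0.04 and the other WT mice at 0.18 to 0.40. On the panel of other collagens WT mouse 1-13M lies at -0.50, inside the D257A range of -0.62 to -0.16. The other WT mice lie there at 0.46 to 0.60. The fibril-associated panel shows the genotypes overlapping.

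Type VI collagen surrounds each muscle fibre and is built from the chains of Col6a1, Col6a2 and Col6a3, whose mutation causes muscle disease in people. Col6a1 (1448590_at) had signals of 618, 529, 753, 716 and 413 in D257A mice and 1412, 600.1, 1238, 1404 and 1352 in WT mice. Between WT mouse 1-13M and the other WT mice there was a gap wider than the whole D257A range. The mean was 606 ± 139 in D257A and 1201 ± 343 in WT mice (SD, 5 mice each), with a log2 fold change of -0.95 (SE 0.24, limma adjusted p = 0.0271; exact permutation p = 0.0317). It was -1.19 without WT mouse 1-13M (limma adjusted p = 3.53e-04). The call was lost without any one of the D257A mice 2-17M (0.0593), 2-21M (0.0580) and 2-30M (0.0652), and without any one of the WT mice 1-12M (0.0759), 2-3M (0.0663), 2-32M (0.0719) or 3-18M (0.0529).

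Col6a2 (1452250_a_at), which lies next to Col6a1 in the genome, missed the threshold with all mice and passed it without WT mouse 1-13M. Signals were 493, 531, 587, 548 and 392 in D257A mice and 1682, 363, 1417, 1562 and 1466 in WT mice. WT mouse 1-13M was below every D257A mouse and the other 4 WT mice were far above them. This gave a log2 fold change of -1.18 (SE 0.34, limma adjusted p = 0.0504; exact permutation p = 0.0476), and without WT mouse 1-13M it was -1.60 (limma adjusted p = 7.94e-06). The other tested probe set of Col6a2 (1426947_x_at) had -0.81 (limma adjusted p = 0.100), and -1.06 without that mouse (limma adjusted p = 0.00417). Col6a3 (1424131_at) had signals of 979.6, 921, 969.5, 1024 and 608 in D257A mice and 1453, 738, 1168, 1355 and 1502 in WT mice. D257A mouse 2-30M and WT mouse 1-13M were the lowest of their genotypes. On the log2 scale the change was -0.45 (SE 0.20, limma adjusted p = 0.199), and -0.62 without WT mouse 1-13M (limma adjusted p = 0.0143).

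Ratios between chains of the same molecule were compared within each mouse, 6 in all, and p-values were adjusted over these. The ratio of Col6a1 to Col6a3 was lower in D257A mice by 0.51 on the log2 scale, with -0.58 ± 0.16 in D257A and -0.07 ± 0.16 in WT mice (SD, 5 mice each; exact permutation p = 0.00794, adjusted 0.0476). For Col6a2 to Col6a3 the difference was -0.74 (exact permutation p = 0.0476, adjusted 0.143), and -0.97 without WT mouse 1-13M (adjusted 0.0317). For Col6a1 to Col6a2 it was 0.23 (exact permutation p = 0.302, adjusted 0.50), and 0.41 without that mouse (exact permutation p = 0.0159, adjusted 0.0317). Each chain was read from its brightest probe set. At the other Col6a2 probe set (1426947_x_at) the log2 fold change was -0.81, beside -0.95 for Col6a1. Without that mouse the values were -1.06 and -1.19. The ratio of Col6a1 to Col6a2 would then have the opposite sign, so its direction depends on the probe set. Some of these ratios were chosen with earlier values known.

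Col8a1, a short-chain collagen of vessel walls, was the next of the other collagens. Its signal (1455627_at) was 277, 226, 239, 195 and 152 in D257A mice and 497, 188, 343, 339 and 569 in WT mice, with only WT mouse 1-13M inside the D257A range. Its log2 fold change was -0.76 (SE 0.27, limma adjusted p = 0.101, and 0.00550 without WT mouse 1-13M). At the dimmer tested probe set of Col8a1 (1418440_at) it was -0.68 (limma adjusted p = 0.132, and 0.137 without that mouse). There WT mouse 1-13M, at 189, was above every D257A mouse, and WT mouse 3-18M, at 92.5, lay inside their range. Of the 6 tested genes of this group, 1 fell, 0 rose and 5 did not pass, with a median of -0.60. With WT mouse 1-13M left out, 4 fell. Col8a2 and Col7a1, the latter of anchoring fibrils, had log2 fold changes of -0.31 and -0.07. The 8 genes too dim to be tested were Col6a4, Col6a5, Col10a1, Col13a1, Col17a1, Col23a1, Col25a1 and Col26a1, among them the membrane collagens Col13a1, Col17a1, Col23a1 and Col25a1 and the cartilage collagen Col10a1.

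No basement membrane collagen passed the test. By limma 0 of the 8 genes were called, 0 had an unadjusted p under 0.05, and the methods' t-test called 0. Col4a1 and Col4a2, whose chains join in the network around every fibre, start 21 bases apart and are read in opposite directions. Col4a1 (1452035_at) had signals of 2584, 2099, 2901, 2242 and 2432 in D257A mice and 3048, 1604, 1695, 2814 and 2317 in WT mice. Col4a2 (1424051_at) had signals of 1631, 1153, 1354, 1189.8 and 1381 in D257A mice and 1384, 1187, 888, 1454 and 974 in WT mice. In both genes the WT range covered most D257A mice. The log2 fold change of Col4a1 was 0.13 (SE 0.18, limma adjusted p = 0.704) and that of Col4a2 was 0.20 (SE 0.16, limma adjusted p = 0.467). The other probe set of Col4a1 (1426348_at) had the opposite sign, -0.23 (limma adjusted p = 0.511). The ratio of Col4a1 to Col4a2 differed by -0.07 on the log2 scale (exact permutation p = 0.667).

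The 5 genes that fell were also set against Col4a1 in the same mice, as a description with no test, since they were chosen for having fallen and Col4a1 for having no call. The D257A minus WT difference in the log2 ratio to the brightest Col4a1 probe set was -3.0 for Col1a1, -2.54 for Col1a2, -1.93 for Col3a1, -1.09 for Col6a1 and -0.95 for Col5a1. Against the other Col4a1 probe set (1426348_at) it was -2.64, -2.18, -1.57, -0.72 and -0.59 in the same order. The genotypes did not overlap for any of the 5 against the first probe set, and against the other they overlapped for Col3a1, Col5a1 and Col6a1.

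The 3 basement membrane genes with the smallest p were Col4a5, Col15a1 and Col4a6, and none of them passed. Col4a5 (1425476_at), of the network altered in hereditary kidney disease, had signals of 123, 132, 138, 109 and 91.2 in D257A mice and 202, 84.8, 182, 227 and 221 in WT mice. WT mouse 1-13M was the lowest of all 10. This gave a log2 fold change of -0.56 (SE 0.27, limma adjusted p = 0.219), and -0.82 without WT mouse 1-13M (limma adjusted p = 0.0116). At the dimmer probe set of Col4a5 (1425475_at) it was -0.24 (limma adjusted p = 0.598, and 0.441 without that mouse). Col15a1 (1448755_at), which links the basement membrane of fibres and capillaries to fibrils, had signals of 141, 164, 191, 199 and 148 in D257A mice and 384, 104, 320.5, 428 and 214 in WT mice. Again WT mouse 1-13M was the lowest of all, and the other WT mice were above every D257A mouse. On the log2 scale the change was -0.63 (SE 0.32, limma adjusted p = 0.251), and -0.96 without that mouse (limma adjusted p = 0.00714).

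Col4a6 (1421006_at), which pairs with the chain of Col4a5, had signals of 168, 90.7, 31.5, 135 and 145 in D257A mice and 185, 182, 198, 98.0 and 160.1 in WT mice. The genotypes overlapped, and WT mouse 1-13M was not apart here. The log2 fold change of Col4a6 was -0.69 (SE 0.39, limma adjusted p = 0.311). Much of it came from D257A mouse 2-25M, at 31.5, and without that mouse it was -0.28 (limma adjusted p = 0.588). Over the 8 genes of the group the median was -0.39, with 0 lower and 0 higher, and without WT mouse 1-13M 2 were lower, Col4a5 and Col15a1. Col18a1, the source of endostatin, had a log2 fold change of -0.42, Col4a3 of -0.35 and Col4a4 of 0.05, and none of these passed in either fit.

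Among the fibril-associated collagens was the 1 tested collagen gene that rose. Col9a1, a chain of type IX collagen known from the fibril surface of cartilage, had signals (1428571_at) of 609, 482, 451, 468 and 378 in D257A mice and 171, 89.3, 246, 171 and 433 in WT mice. WT mouse 3-18M overlapped with the D257A mice, and WT mouse 1-13M was the lowest of all and so lay farther from the D257A mice than the other WT mice did. The mean was 478 ± 83.5 in D257A and 222 ± 130.4 in WT mice (SD, 5 mice each), with a log2 fold change of 1.28 (SE 0.32, limma adjusted p = 0.0268; exact permutation p = 0.0159). With WT mouse 1-13M left out it was 1.00 (limma adjusted p = 0.0137). The call was lost without any one of the D257A mice 2-17M (0.0739), 2-21M (0.0525), 2-25M (0.0577) and 2-27M (0.0502), and without any one of the WT mice 1-12M (0.0677) or 2-32M (0.0643). The dimmer probe set of Col9a1 (1421381_a_at) had a log2 fold change of 0.68 and did not pass (limma adjusted p = 0.102). Col9a2 and Col9a3, the partner chains of type IX, were too dim to be tested.

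Col19a1, the neighbour of Col9a1 in the genome, had signals (1421698_a_at) of 289, 194, 227, 204 and 386 in D257A mice and 149, 199, 173, 138 and 142 in WT mice. WT mouse 1-13M, at 199, was the highest WT mouse and the only one above a D257A mouse. This gave a log2 fold change of 0.66 (SE 0.21, limma adjusted p = 0.0687), and 0.74 without WT mouse 1-13M (limma adjusted p = 0.0294). At the other tested probe set of Col19a1 (1456953_at) it was 0.36 (limma adjusted p = 0.511, and 0.373 without that mouse). There WT mice 1-13M (123), 2-3M (119) and 2-32M (127) were above D257A mice 2-21M (91.8), 2-25M (83.5) and 2-27M (117). Col14a1, which coats fibrils in tendon and muscle sheaths, had signals (1427168_a_at) of 406, 192, 266, 227 and 238 in D257A mice and 428, 181, 411, 367 and 407 in WT mice. D257A mouse 2-17M lay at the level of the WT mice, and WT mouse 1-13M below every D257A mouse. On the log2 scale the change was -0.42 (SE 0.25, limma adjusted p = 0.345), and -0.65 without WT mouse 1-13M (limma adjusted p = 0.0359).

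Of the 7 tested fibril-associated genes, 1 rose, 0 fell and 6 did not pass, with a median of 0.14. With WT mouse 1-13M left out, 2 rose and 1 fell. Col12a1, another coat of tendon fibrils, had a log2 fold change of 0.14, and Col16a1 one of -0.34. A dimmer probe set of Col12a1 (1434411_at), just too dim to be tested, went the other way. Its signals were 97.4, 28.6, 30.6, 61.4 and 57.2 in D257A mice and 223, 22.8, 119, 177 and 177 in WT mice. There WT mouse 1-13M was the lowest of all, and the other WT mice were above every D257A mouse. Col22a1, a collagen of the junction between muscle and tendon, had a log2 fold change of -0.19 at its brightest probe set. The probe sets of Col20a1 and Col22a1 differed in sign and none was called. Over all 4 groups the log2 fold change was negative in 21 of the 28 tested genes and positive in 7, with a median of -0.42. The 38 probe sets that were too dim to be tested had mean signals between 3.63 and 75.1, and they left 14 of the 42 genes without a test. Of the 44 tested, 7 were above the brightness threshold in 1 genotype only.

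Genes that make, join and bind collagen were read from lists set by their role, beside 3.52% of all tested genes lower and 3.71% higher. Without WT mouse 1-13M, 8.33% of all tested genes were lower and 7.76% higher, and counts without it are to be read beside these shares. For folding and modification, 1 of 16 tested genes fell, 0 rose and 15 did not pass, a share near that of all genes. The one that fell was Mia3, which loads large cargo such as collagen into transport vesicles, with a log2 fold change of -0.36 (SE 0.10, limma adjusted p = 0.0414). Its call ended when the arrays were not scaled (limma adjusted p = 0.103), and without each single mouse except WT mice 1-13M and 3-18M (0.0580 to 0.109). Serpinh1, the chaperone that binds collagen alone, had a log2 fold change of -0.37 (limma adjusted p = 0.164), and -0.49 without WT mouse 1-13M (limma adjusted p = 0.0225). The prolyl hydroxylase subunits P4ha1 and P4hb had log2 fold changes of -0.13 and 0.16.

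Propeptide removal and cross-linking, the steps after secretion, held 0 lower and 0 higher of 6 tested genes by limma (3 lower and 1 higher at an unadjusted p under 0.05, and 0 by the methods' t-test after adjustment). Before adjustment, that t-test gave 1 lower and 0 higher at a p under 0.05. The smallest p belonged to Loxl1, a lysyl oxidase, with a log2 fold change of -0.48 (limma adjusted p = 0.0942). With WT mouse 1-13M left out, 3 were lower, which were Bmp1, Pcolce and Loxl1. Of 10 tested genes of fibril assembly, 2 fell, 0 rose and 8 did not pass. Kera, the small proteoglycan keratocan, had a mean signal of 39.5 ± 19.2 in D257A and 272 ± 162 in WT mice (SD, 5 mice each), with a log2 fold change of -2.66 (SE 0.54, limma adjusted p = 0.0100), a call that held with each mouse left out (0.0328 at most). Its mean was above the brightness threshold in WT mice only, so that a difference was more likely once it was tested, and its D257A level lies among those of probe sets too dim to be tested. Fn1, fibronectin, on which fibrils are laid, had a log2 fold change of -0.89 (SE 0.21, limma adjusted p = 0.0196, and 0.0560 without WT mouse 1-12M). With WT mouse 1-13M left out, 5 were lower, with Fmod, Lum and Dpt added. Dcn, decorin, had a log2 fold change of -0.08.

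For breakdown of collagen, limma called 0 of 11 tested genes (1 lower and 1 higher at an unadjusted p under 0.05, and 0 by the methods' t-test), and Mmp2, a gelatinase, had the smallest p, with a log2 fold change of -0.36 (limma adjusted p = 0.136). Of 5 tested receptors limma called 0 (0 also at an unadjusted p under 0.05 and by the methods' t-test), and Itgb1, the shared integrin chain, had a log2 fold change of -0.33 (limma adjusted p = 0.223). Of 11 tested basement membrane partners of type IV collagen limma called 0 (1 lower at an unadjusted p under 0.05, and 0 by the methods' t-test), and the laminin chain Lama5 had a log2 fold change of -0.31 (limma adjusted p = 0.184). Before adjustment, the methods' t-test at a p under 0.05 gave 1 lower and 2 higher of the breakdown genes. It gave 0 of the receptors, and 1 lower and 1 higher of the basement membrane partners. Of 13 tested genes of transforming growth factor β signalling, which drives collagen synthesis in fibroblasts, 2 fell and 0 rose by limma. At an unadjusted p under 0.05, 3 were lower and 3 higher, and the methods' t-test called 0 lower and 1 higher. Before adjustment, that t-test also gave 3 lower and 3 higher at a p under 0.05. The genes that fell were the ligand Tgfb3, with a log2 fold change of -0.86 (SE 0.20, limma adjusted p = 0.0212), and Ltbp4, which holds the ligand in the matrix, with -0.58 (SE 0.15, limma adjusted p = 0.0308). The call of Tgfb3 was lost with D257A mouse 2-17M left out, and with any one of the WT mice 1-12M, 2-3M and 2-32M left out (0.0578 to 0.0633), and that of Ltbp4 without any one of D257A mice 2-17M, 2-25M and 2-30M and WT mice 1-12M, 2-3M and 2-32M (0.0693 to 0.0864). Positive but not called were the receptor Tgfbr1, with a log2 fold change of 0.31 (limma adjusted p = 0.0679) and every D257A mouse above every WT mouse, the ligand Tgfb2, with 0.58 (limma adjusted p = 0.111), and Smad4, with 0.27 (limma adjusted p = 0.0908). With WT mouse 1-13M left out, 4 were lower and 1 was higher, where 8.33% and 7.76% of all tested genes were. With the leading digit as a block, the calls of Mia3 (limma adjusted p = 0.175), Fn1 (0.112) and Ltbp4 (0.0778) were lost.

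**Figure D4:**
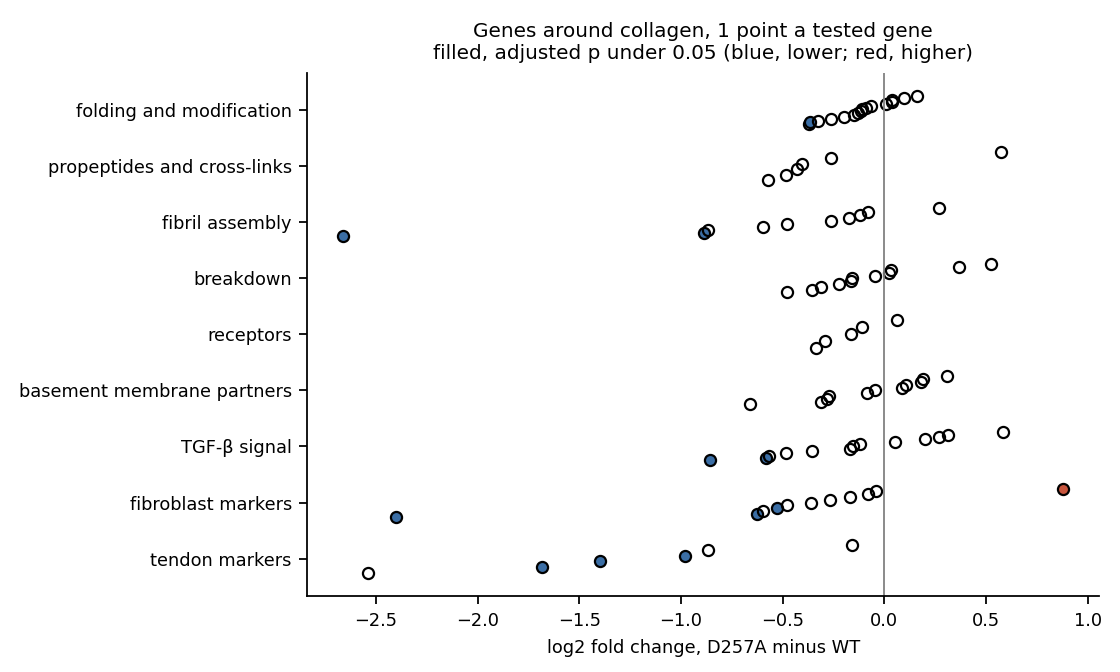
Log2 fold change, D257A minus WT, of each tested gene in 7 lists of genes around collagen and in the fibroblast and tendon marker lists, 1 point a gene by its brightest probe set. Filled points passed at an adjusted p under 0.05, blue lower and red higher. Kera at -2.66 is the lowest filled point, in fibril assembly, and no point is filled in breakdown, receptors or basement membrane partners.

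Some markers of the cells that make fibrillar collagen were also lower. Of 7 tendon markers 6 were tested, and 3 were lower and 0 higher, where 3.52% of all tested genes were lower. They were Thbs4, with a log2 fold change of -1.40 (limma adjusted p = 9.41e-04), Tnmd, with -1.68 (limma adjusted p = 0.0224), and Comp, with -0.98 (limma adjusted p = 0.0494). Thbs4 kept its call with each mouse left out (0.00465 at most). Tnmd lost it without any one of D257A mice 2-17M and 2-21M and WT mice 1-12M, 2-3M and 2-32M (0.0517 to 0.0653), and Comp without each mouse except WT mouse 1-13M (0.0759 to 0.127). The summed signal of the 7 markers was 3231 to 5306 in D257A mice, 4740 in WT mouse 1-13M and 9011 to 13381 in the other WT mice. WT mouse 1-13M thus lay within the D257A range of this sum, as it did at the brightest probe sets of Col1a1, Col3a1, Col5a1 and Col6a1. At both probe sets of Col1a2 and the other one of Col5a1 (1434479_at) it lay above every D257A mouse. The transcription factor Mkx was too dim to be tested, at a mean of 48.9 ± 25.4 in D257A and 73.3 ± 21.9 in WT mice (SD, 5 mice each), and the transcription factor Scx had a log2 fold change of -0.16. None of the 7 was listed at a mean of 0 in either genotype. The part of tendon tissue in the collagen values was not tested.

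Of 12 fibroblast markers 11 were tested, and 3 were lower, 1 was higher and 7 did not pass. Pi16 had a log2 fold change of -2.40 (limma adjusted p = 8.10e-04), Cd34 of -0.53 (limma adjusted p = 0.0266), Mfap5 of -0.63 (limma adjusted p = 0.0336) and Smoc2 of 0.88 (limma adjusted p = 8.17e-04). The calls of Pi16 and Smoc2 held with each mouse left out, that of Cd34 was lost in 6 of 10 such fits (D257A mice 2-21M, 2-25M and 2-30M, WT mice 1-12M, 2-3M and 2-32M) and that of Mfap5 in 7 (all but D257A mouse 2-25M and WT mice 1-13M and 3-18M). The fibroblast receptor Pdgfra had a log2 fold change of -0.04 (limma adjusted p = 0.906). The summed signal was 55788 to 63226 in D257A mice, 55718 in WT mouse 1-13M and 61629 to 74376 in the other WT mice. Most of this sum came from Gsn (mean 29431 in D257A and 33287 in WT mice) and Dcn (18050 and 19137), neither of them called. It therefore says little about the other markers of the list. Of 9 macrophage markers 3 were higher and 0 lower, where 3.71% of all tested genes were higher. They were Cd163, Mrc1 and Lyz2, with log2 fold changes of 0.97, 0.78 and 0.59. Cd163 lost its call with D257A mouse 2-30M left out, and with either of the WT mice 1-12M and 2-3M left out. Lyz2 lost it without any one of D257A mice 2-17M, 2-25M and 2-30M and WT mice 1-12M, 2-32M and 3-18M. Their list summed to 8589 to 13032 in D257A mice and 7149 to 9107 in WT mice. Of the endothelial markers 1 of 7 was higher, Vwf, and of the adipocyte markers 1 of 5, Retn, a call lost without any D257A mouse and without WT mouse 2-3M. Mural, Schwann and satellite cell markers held 0 limma calls among 6, 1 and 4 tested genes (1 lower and 1 higher mural and satellite gene each at an unadjusted p under 0.05, and 0 by the methods' t-test after adjustment). Before adjustment, that t-test gave 1 lower satellite cell gene at a p under 0.05, and 0 mural or Schwann genes. The part of these cell types in the collagen values was not tested.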

How the data were processed

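Gene expression of gastrocnemius from 5 D257A and 5 WT mice was measured on Affymetrix Mouse Genome 430 2.0 arrays, 1 per mouse, without pooling. The deposited intensity values are linear signals for each probe set, which the authors made in GCOS 1.3 (named in the submitters' processing notes). The signal algorithm and detection calls are not given in the sources used here. The authors' supplement states a scaling target of 500, but the deposited columns had trimmed means (2% left out at each end) of 93.4 to 129. Each array was therefore scaled to 500 before log2. The tissue label was followed where a protocol line names cochlea, and the labelled sex (male) where the published methods speak of both sexes.

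Of 45101 probe sets, 64 AFFX controls were set aside. In the array annotation 34945 of the others had 1 gene symbol, 932 several and 9160 were unnamed here. The 22518 brighter than the median by their mean log2 signal (6.26 and up) were fitted with limma 3.58.1 in R 4.3.3 (lmFit, eBayes with trend, no covariates), tested on simulated data beforehand. Adjustment of p-values was by the Benjamini-Hochberg method across all of these. The number of arrays limits the precision. Probe sets ending in _s_at, _x_at or _a_at can bind related transcripts.

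The collagen genes and gene lists were chosen with earlier results of these data known, so the lists were counted and not tested as sets. Named were the members with a called probe set, the 3 with the smallest p in each group, the partner chains, and up to 4 called genes of each list, or else the 1 with the smallest p. Other genes of these lists were added as background or after their values were seen. Alternatives were quantile normalization, median centring, no scaling, no filter, the 11259 brightest probe sets, no variance trend, array weights, an offset of 32, the methods' t-test (equal variance), the mice numbered 2 alone, a block for the first digit of each mouse's number, other ways to read a gene, and each mouse left out in turn. Exact tests used SciPy 1.17.1 in Python 3.11.15, with tables in pandas 2.3.3 and NumPy 2.4.6 and plots in matplotlib 3.10.9. Promoters came from RefSeq (GRCm38.p6). Protein sequences were not analysed here.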

Additional observations from a re-analysis of the deposited data

Results flagged for a closer look

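Brightest probe sets of the named genes, and further called ones, 20 in all, were examined in each genotype for a mouse far from the other 4. A mouse was marked where its gap to the nearest other mouse, as a share of the range of its genotype, passed the 95% limit of Dixon's test. Of the 40 groups of 5 mice, 7 were marked, and 5 of the 7 were WT mouse 1-13M. Chance marks about 1 in 20 of separate groups. These groups share the same mice, and some share a gene, so 1 unusual array can mark several. The count of 7 can therefore not be judged against that rate.

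In WT mouse 1-13M the signal of Col6a2 was 363 against 1417 to 1682 in the other WT mice (gap share 0.888), and that of Col6a1 was 600.1 against 1238 to 1412 (0.847). In the same mouse Col1a1 was at 107 against 559.7 to 761 (0.843), Col14a1 at 181 against 367 to 428 (0.821) and Col4a5 at 84.8 against 182 to 227 (0.777). All of these were on the side of the D257A mice.

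In D257A mouse 2-30M the signal of Col6a3 was 608 against 921 to 1024 in the other D257A mice (0.795). In D257A mouse 2-17M that of Col1a1 (1423669_at) was 8.22 against 77.3 to 161 (0.754), while the other Col1a1 probe set (1455494_at) gave 49.1 in that mouse, also the lowest of the 5.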

How the results depend on the processing

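Both Col1a2 probe sets and the count of lower collagen genes bear on the settings as follows. The brighter Col1a2 probe set (1450857_a_at) was called lower under every alternative that tested it. The alternative without probe sets ending in _s_at, _x_at or _a_at left it out. The other Col1a2 probe set lost its call in the methods' t-test (adjusted p = 0.0525). Of the 29 collagen and pathway probe sets recomputed under the alternatives, 0 changed direction. Marker genes and the other genes given with a value were not recomputed under all of them, and Col4a4 went from 0.05 to -0.01 on the log2 scale without WT mouse 1-13M. Over the 29 and the alternatives 490 values kept their side of the threshold, 101 lost the call and 27 gained it. Against 8 lower and 1 higher probe set and 5 lower and 1 higher gene, quantile normalization gave 2 higher probe sets and 2 higher genes. Median centring gave 5 lower and 2 higher probe sets, and 3 lower and 2 higher genes. It shifts the median of all tested probe sets by 0.13 on the log2 scale, and calls over all probe sets went from 843 lower and 819 higher to 418 and 1599 (856 and 356 with no scaling). No scaling gave 8 lower genes. The 11259 brightest probe sets gave 5 lower and 0 higher probe sets, and 0 higher genes. Without a variance trend there were 4 lower and 0 higher probe sets, and 1 lower and 0 higher genes. Array weights, which give WT mouse 1-13M little weight, gave 19 lower and 2 higher probe sets, and 13 lower and 2 higher genes. The methods' t-test after Benjamini-Hochberg gave 1 lower and 0 higher probe sets, and 1 lower and 0 higher genes. At an unadjusted p under 0.05 it gave 15 and 3 probe sets, and 9 and 2 genes. Under a block for the first digit of each mouse's number, 2 probe sets and 1 gene were lower. Without probe sets ending in _s_at, _x_at or _a_at, 5 probe sets and 3 genes were lower. Leaving out 1 mouse at a time gave 2 to 19 lower and 0 to 2 higher probe sets, and 1 to 13 lower and 0 to 2 higher genes. The highest of these counts came without WT mouse 1-13M. The cause of these changes was not tested. No paired analysis was possible because the mouse numbers are not shared between genotypes. What the leading digit stands for is not stated in the labels. Signals near background, such as those of the 38 collagen probe sets that were not tested, limit what can be read from dim genes.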
